A study of Mus musculus with 6 samples.

Results

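The cathepsins are proteases, most of them of the lysosome, and 10 of their genes are described here in macrophages of mouse liver tumours: Ctsa, Ctsb, Ctsc, Ctsd, Ctse, Ctsh, Ctsk, Ctsl, Ctss and Ctsz. They were taken by gene symbol from a table of 55291 gene symbols, and all 10 were found. The samples were tumour-associated macrophages (TAM) of mouse hepatocellular carcinoma, labelled as positive or negative for TREM2, a receptor for lipids on the cell surface. Each label had 3 libraries of polyadenylated RNA. All 6 came from liver tumour tissue. The sources used here do not give the strain, tumour model, age of the mice, any treatment, the way TREM2 was read or the number of animals behind a library. Because nothing says that the replicates were separate animals, p-values measure the spread between these libraries, which may be technical.

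Cathepsins are made as inactive precursors, sorted to lysosomes mostly by the mannose 6-phosphate tag, and activated there by cleavage at low pH. Most, including B, C, H, K, L, S and Z, cut with a cysteine in the active site, D and E with a pair of aspartates, and A with a serine. In macrophages they digest engulfed material, trim the class II invariant chain before antigen is loaded, and can be released to cut matrix outside the cell. Cystatins, which are small tight-binding proteins, inhibit the cysteine enzymes.

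Promoter sequence is shown for 4 members on which the values below turn: Ctsd and Ctsl, which rose, Ctss, the most abundant, and Ctsa, whose groups overlapped. The sequences are RefSeq's for GRCm38.p6, the genome mm10, and run from 250 bases before to 50 after an annotated start site, 5′ to 3′ on the strand of the gene. A window was found for 7 of the 10 members. Ctsb, Ctse and Ctsh had none, so no motif was searched in them. The window of Ctsd is chr7:142387778-142388077 on the minus strand, that of Ctsl chr13:64370471-64370770 on the minus strand, that of Ctss chr3:95526536-95526835 on the plus strand, and that of Ctsa, the second of 2 listed for this gene, chr2:164833523-164833822 on the plus strand. Capitals mark every match, on either strand, to one of 6 motifs: the E-box CACGTG bound by TFEB and related lysosomal regulators, its extended form TCACGTG which contains it, the M-box TCATGTG, the AP-1 site TGANTCA, the myeloid PU.1 motif GAGGAAG, and the interferon-stimulated response element (ISRE).
Ctsd: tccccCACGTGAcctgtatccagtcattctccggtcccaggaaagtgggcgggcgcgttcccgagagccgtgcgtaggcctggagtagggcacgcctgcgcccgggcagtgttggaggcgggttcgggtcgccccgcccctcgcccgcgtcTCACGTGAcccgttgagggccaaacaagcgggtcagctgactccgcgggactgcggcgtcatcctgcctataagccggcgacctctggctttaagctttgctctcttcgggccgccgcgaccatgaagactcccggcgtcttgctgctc
Ctsl: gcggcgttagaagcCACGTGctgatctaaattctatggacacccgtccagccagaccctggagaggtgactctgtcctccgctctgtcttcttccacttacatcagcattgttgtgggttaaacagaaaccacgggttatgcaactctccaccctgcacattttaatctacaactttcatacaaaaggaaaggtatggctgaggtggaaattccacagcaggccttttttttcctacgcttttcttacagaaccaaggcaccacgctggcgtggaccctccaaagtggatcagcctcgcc
Ctss: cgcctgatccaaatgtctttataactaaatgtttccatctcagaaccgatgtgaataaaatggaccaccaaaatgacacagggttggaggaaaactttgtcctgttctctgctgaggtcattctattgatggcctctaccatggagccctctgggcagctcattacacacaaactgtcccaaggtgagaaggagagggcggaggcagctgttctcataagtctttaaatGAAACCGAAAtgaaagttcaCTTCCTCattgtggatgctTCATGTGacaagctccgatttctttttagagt
Ctsa: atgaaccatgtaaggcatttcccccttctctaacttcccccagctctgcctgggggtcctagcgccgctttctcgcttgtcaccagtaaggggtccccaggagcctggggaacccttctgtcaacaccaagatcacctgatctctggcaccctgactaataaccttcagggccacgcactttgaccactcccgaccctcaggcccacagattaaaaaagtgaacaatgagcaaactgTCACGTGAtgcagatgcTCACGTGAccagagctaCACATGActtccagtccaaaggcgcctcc

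The E-box was found in the windows of 3 of these 7 members, Ctsa, Ctsd and Ctsl, and in 7.15% of all 32817 promoter windows. In Ctsd it began at -245 and -98 relative to the start site, in Ctsl at -236, and in the second window of Ctsa at -12 and 5. Both copies in Ctsd and both in Ctsa were the extended form, which 3.76% of all windows held. The PU.1 motif was found in Ctsc, Ctsk and Ctss and in 13.6% of all windows. The ISRE was found in Ctss, at -21, and in 3.43% of all windows. The M-box was found in Ctsa and Ctss and in 3.78% of all windows. The AP-1 letters were in none of the members' windows and in 7.81% of all windows. The matches of Ctsa were all in its second window, and its first window, chr2:164832622-164832921, held none of the 6 motifs. The first window spans the annotated start of the gene, 164832873, and the second lies inside the gene. A match is a run of letters and was not tested as a binding site. The E-box stood in Ctsd and Ctsl, which rose, and in the second but not the first window of Ctsa. Ctsb, which also rose, had no window to search.

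Levels are given as TPM, the length-scaled share of a gene in a library rescaled to a total of 1000000, and read counts are whole reads recovered from the deposited values. Recovered depth ranged from 11493461 to 19929829 reads. All 8 macrophage marker genes were present in each library, among them Cd68 at 1169 to 2081 TPM and Csf1r at 172 to 390.0 TPM. Limma called 0 of them (2 higher and 1 lower by unadjusted p under 0.05), voom called Mertk and Fcgr1 higher and Lyz2 lower, and their summed level was 32489 to 42416 TPM in the TREM2+ against 58075 to 75477 TPM in the TREM2- libraries. Most of that sum was the lysozyme gene Lyz2, at 29839, 37301 and 28336 TPM against 66719, 70509 and 55343 TPM (limma, adjusted p = 0.115), and its part in the cathepsin values was not tested. Trem2 itself, which checks the labels, stood at 39.6, 40.8 and 30.7 TPM in TREM2+ replicates 1, 2 and 3 and at 16.9, 20.5 and 21.1 TPM in TREM2- replicates 1, 2 and 3, without overlap, and did not pass the test (limma, adjusted p = 0.0855), while voom called it higher. In bulk RNA, fewer cells of a type and less RNA per cell cannot be told apart.

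TREM2+ libraries carried more transcripts of cathepsins B, D and L, at 2.52-, 2.44- and 3.49-fold the TREM2- level on the log2(TPM + 1) scale. No member was called lower. With limma, at a Benjamini-Hochberg adjusted p under 0.05 over 13788 genes, 3 of 10 members were higher, where 2.05% of all genes tested were, and 0 were lower, where 0.37% of all genes were (2.42% in either direction). Ctsk passed the filter of 1 TPM in 3 libraries only through the TREM2+ libraries, so its direction was set by the filter and it is left out of the next counts. By unadjusted p under 0.05, 6 of the other 9 members were higher and 0 were lower, beside 7.45% higher and 736 lower of all 13788 genes. Voom on recovered reads called the same 3 members higher and 0 lower, where it called 573 higher and 158 lower of 13331 genes. The groups did not overlap in 7 of the 9 members, with 6 higher and Ctse lower, beside 16.7% of all genes without overlap and 9.07% without overlap and higher. The median log2 fold change was 0.70 over the 9 members and -0.09 over all genes tested. Over all genes, 282 were higher and 51 lower. That split was 206 and 92 on the deposited values without rescaling, and 284 and 101 without a repeat transcript family.

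**Figure D1:**
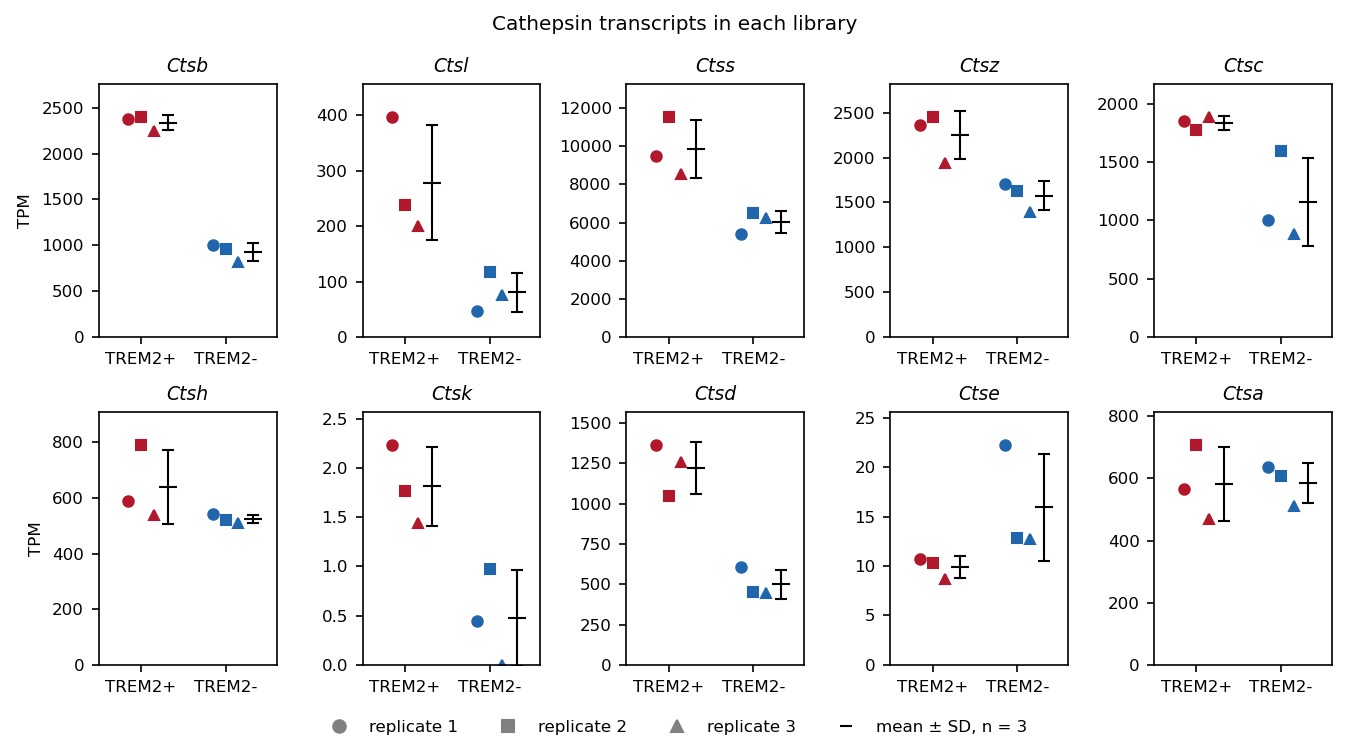
Each panel plots TPM on a linear axis from 0 for 1 cathepsin gene, with circles, squares and triangles for replicates 1, 2 and 3 and the mean and SD (n = 3) beside them. In Ctsb the TREM2+ libraries lie between 2249 and 2393 TPM and the TREM2- libraries between 819 and 1007 TPM, while in Ctsa and Ctsh the groups overlap.

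Ctsb encodes cathepsin B, a cysteine protease that can act both as an endopeptidase and as a dipeptide-trimming exopeptidase. It lies on chromosome 14, 63122462 to 63145923, plus strand (ENSMUSG00000021939.8). Its level was 2371, 2393 and 2249 TPM in TREM2+ replicates 1, 2 and 3 and 1007, 962 and 819 TPM in TREM2- replicates 1, 2 and 3. The lowest TREM2+ library was above each TREM2- library, and the spread within a group was small, with SDs of 77.8 and 98.2 TPM. The log2 fold change was 1.33 ± 0.21 (limma standard error, 3 against 3 libraries), with adjusted p = 0.0152. A larger fold change was found for 312 genes, 2.26% of those tested. Without TREM2+ replicate 1 the adjusted p was 0.0709, and without TREM2- replicate 3 it was 0.0776, so the call ended in these fits although the log2 fold change was 1.32 and 1.25.

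Ctsl encodes cathepsin L, the cysteine endopeptidase with a broad role in lysosomal protein turnover (chromosome 13, 64359337 to 64370890, minus strand, ENSMUSG00000021477.9). Its level was 396, 239 and 201 TPM in TREM2+ replicates 1, 2 and 3 and, in the same order of TREM2- replicates, 48.0, 118 and 76.9 TPM. TREM2+ replicate 1 was the highest and TREM2- replicate 1 the lowest, and the groups did not overlap. The log2 fold change was 1.80 ± 0.37 in limma, with adjusted p = 0.0407 and a 95% interval from 0.97 to 2.64. On the log2(TPM + 1) scale it had the largest fold change and the widest interval of the 10 members, while with voom the scarce Ctsk had a larger one (2.57 ± 0.82 against 1.85 ± 0.42). The call was kept in only 1 of the 6 fits that leave out a library, the one without TREM2- replicate 2 (adjusted p = 0.00495), and the adjusted p lay between 0.0507 and 0.136 in the other 5. It also ended under median-of-ratios scaling (adjusted p = 0.0786) and without the repeat family (adjusted p = 0.076).

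Ctsd encodes cathepsin D, the main aspartic protease of lysosomes (chromosome 7, 142375911 to 142388038, minus strand, ENSMUSG00000007891.16). It stood at 1363, 1046 and 1256 TPM in TREM2+ replicates 1, 2 and 3 and at 604, 453 and 446 TPM in TREM2- replicates 1, 2 and 3. The groups were far apart compared with their SDs of 161 and 89.6 TPM. The log2 fold change was 1.29 ± 0.23 in limma, with adjusted p = 0.0241. The call ended without TREM2+ replicate 1 (adjusted p = 0.111), without TREM2+ replicate 3 (adjusted p = 0.0715) or without TREM2- replicate 3 (adjusted p = 0.103). On the deposited values without rescaling neither Ctsb (adjusted p = 0.129) nor Ctsd (adjusted p = 0.17) was called, and Ctsl was (adjusted p = 0.0261).

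Ctsb and Ctsd kept a like proportion in both groups. The ratio of Ctsd to Ctsb TPM was 0.575, 0.437 and 0.559 in TREM2+ replicates 1, 2 and 3 and 0.600, 0.471 and 0.544 in TREM2- replicates 1, 2 and 3, with overlapping groups. In contrast, the ratio of Ctsb to Ctsa was 4.19, 3.38 and 4.77 in the TREM2+ libraries against 1.583, 1.583 and 1.599 in the TREM2- libraries. The groups of this second ratio did not overlap. Such ratios within a library do not depend on how the library totals were scaled, and since 3 against 3 libraries cannot reach an exact permutation p below 0.1, they are given as values.

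Ctss, Ctsz and Ctsc were higher in each TREM2+ library than in any TREM2- library and were not called. Ctss encodes cathepsin S, which degrades the class II invariant chain (chromosome 3, 95526786 to 95556403, plus strand). It was the most abundant member of both groups, with 9464, 11501 and 8523 TPM in the TREM2+ libraries against 5397, 6481 and 6225 TPM in the TREM2- libraries. Its log2 fold change was 0.70 ± 0.24 (limma, adjusted p = 0.245), with an interval from 0.15 to 1.25. Ctsz, for the carboxypeptidase cathepsin Z (chromosome 2, 174427493 to 174439039, minus strand), held 2358, 2447 and 1944 TPM against 1702, 1630.2 and 1393 TPM. The nearest libraries of the 2 groups were TREM2+ replicate 3 and TREM2- replicate 1, and the log2 fold change of Ctsz was 0.51 ± 0.22 (limma, adjusted p = 0.384).

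Ctsc encodes cathepsin C, the dipeptidyl peptidase that activates the serine proteases of granules (chromosome 7, 88278085 to 88310888, plus strand). The TREM2+ libraries were close together at 1854, 1772 and 1883 TPM, while the TREM2- libraries stood at 1002, 1593 and 881 TPM. TREM2- replicate 2 was near the TREM2+ level and the other 2 were far below it. The log2 fold change was 0.71 ± 0.27 (limma, adjusted p = 0.283), and without that library it was 0.97 (adjusted p = 0.0924). Cathepsin C's best known substrates are proteases of neutrophils, mast cells and cytotoxic lymphocytes, and of 6 such genes tested (Elane, Prtn3, Ctsg, Gzma, Gzmb and Cma1) limma called 0 (0 higher and 4 lower by unadjusted p under 0.05), with a median log2 fold change of -1.03. By unadjusted p under 0.05, 736 of all 13788 genes were lower. Voom called Gzma lower. The granzyme gene Gzma stood at 148, 261 and 139.8 TPM in the TREM2+ libraries against 537, 327 and 343 TPM in the TREM2- libraries, and Gzmb at 153, 109 and 130.05 TPM against 434, 206 and 158 TPM.

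Ctsh and Ctsa differed by no more than their spread. Ctsh, for the aminopeptidase cathepsin H (chromosome 9, 90054152 to 90076089, plus strand), held 588, 789 and 536 TPM in the TREM2+ libraries against 540.4, 521 and 510.1 TPM in the TREM2- libraries. TREM2+ replicate 2 stood above the rest, and the interval of the log2 fold change ran from -0.24 to 0.77. Ctsa, for the serine carboxypeptidase that also shields neuraminidase and beta-galactosidase in a lysosomal complex (chromosome 2, 164832873 to 164841032, plus strand), held 566, 707 and 471 TPM against 636, 608 and 512 TPM. The highest and the lowest library were both TREM2+. Its interval ran from -0.55 to 0.50, so fold changes from 0.682 to 1.42 were within the spread. The complex partners of cathepsin A also missed the threshold: neuraminidase Neu1 had a log2 fold change of 0.09 (interval -0.49 to 0.68) and beta-galactosidase Glb1 of 0.22 (interval -0.34 to 0.77).

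The remaining members were scarce. Ctse encodes cathepsin E, an aspartic protease of endosomes (chromosome 1, 131638306 to 131675505, plus strand), and was the only member whose TREM2+ libraries all lay below the TREM2- libraries. It held 10.8, 10.3 and 8.65 TPM against 22.2, 12.9 and 12.7 TPM, with TREM2- replicate 1 well above the others. The log2 fold change was -0.59 ± 0.27 (limma, adjusted p = 0.401). Ctsk encodes the collagen-cutting protease cathepsin K of osteoclasts (chromosome 3, 95499256 to 95509362, plus strand). It had 26, 19 and 14 reads in the TREM2+ libraries against 6, 11 and 0 reads in the TREM2- libraries, or 2.23, 1.76 and 1.44 TPM against 0.445, 0.976 and 0 TPM. The count of 0 in TREM2- replicate 3 allows up to 3 reads, which is 0.308 TPM, from counting error only. The log2 fold change of Ctsk was 0.98 ± 0.32 (limma, adjusted p = 0.204) but moved between 0.32 with a pseudocount of 5 and 2.57 with voom.

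**Figure D2:**
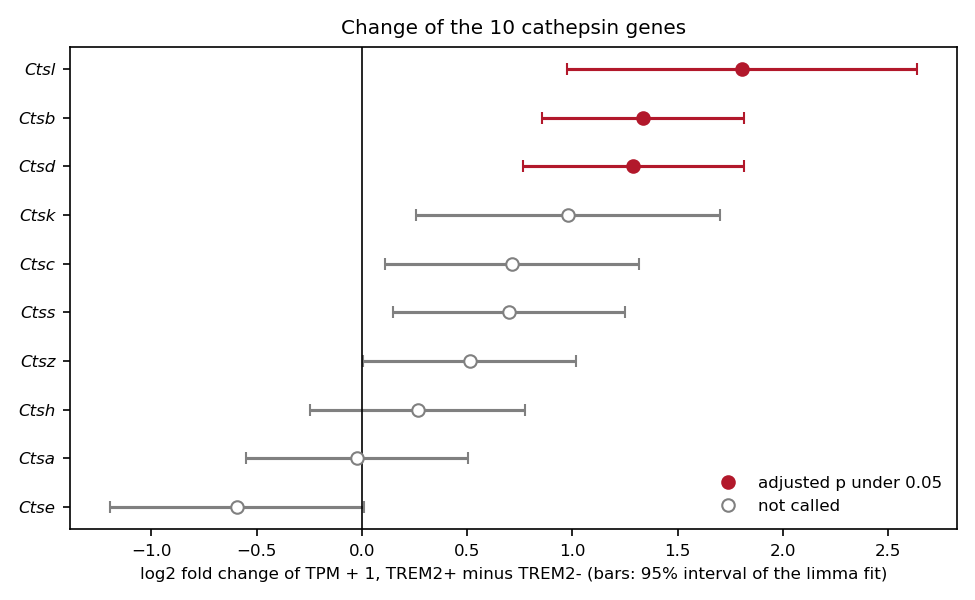
Points show the log2 fold change of TPM + 1, TREM2+ minus TREM2-, for each of the 10 cathepsin genes, and bars show the 95% interval of the limma fit over 3 against 3 libraries. Filled points, Ctsl, Ctsb and Ctsd, had an adjusted p under 0.05, and the intervals of Ctsh, Ctsa and Ctse cross 0.

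The summed level of the 10 genes was 18974, 20906 and 17073 TPM in TREM2+ replicates 1, 2 and 3 and 10959, 12380 and 10877 TPM in TREM2- replicates 1, 2 and 3. This was 1.71% to 2.09% of all transcripts in the TREM2+ libraries and 1.09% to 1.24% in the TREM2- libraries. Ctss made up 51.6% ± 2.95 (SD, n = 3) of the summed TPM in the TREM2+ libraries and 52.9% ± 4.03 in the TREM2- libraries, with overlapping ranges. The share of Ctsb was 12.5%, 11.4% and 13.2% against 9.19%, 7.77% and 7.53%, without overlap. The share of Ctsa was 2.98%, 3.38% and 2.76% against 5.81%, 4.91% and 4.71%, again without overlap. Ctsh and Ctsz also took a smaller share of the TREM2+ pool, with 3.34% ± 0.377 against 4.61% ± 0.369 and 11.8% ± 0.535 against 13.8% ± 1.48.

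By class, the 7 cysteine genes summed to 17035, 19143 and 15337 TPM in the TREM2+ libraries against 9696, 11306 and 9906 TPM in the TREM2- libraries. Their share of the pool was 90.4% ± 1.02 against 90.3% ± 1.58. The aspartic pair, which is nearly all Ctsd, summed to 1231 ± 161 against 517 ± 95.04 TPM. The members' order by mean TPM in the TREM2+ libraries was Ctss, Ctsb, Ctsz, Ctsc, Ctsd, Ctsh, Ctsa, Ctsl, Ctse and Ctsk, where Ctsb and Ctsz overlapped, as did Ctsh and Ctsa. In the TREM2- libraries Ctsb stood behind Ctsz and Ctsc, and Ctsd behind Ctsa and Ctsh. In that order Ctsz overlapped with Ctsc, Ctsc with Ctsb, Ctsa with Ctsh, and Ctsh with Ctsd.

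These levels rest on the summed length of all annotated exons, which for some members exceeds the main transcript. The exons of Ctsc add up to 5808 bases and its principal transcript to 2493, and those of Ctsh to 4499 against 1617. By the shortest principal transcript of each gene, Ctsc made up 17.8% of the TREM2+ pool in place of 9.76%, Ctsh 7.30% in place of 3.34% and Ctsl 3.79% in place of 1.47%. Ctsl has 2 such transcripts, of 1971 and 6168 bases, so its share depends on which is meant. The order of the members also depends on the length used. By principal transcript the mean share of Ctsc was above that of Ctsb in both groups, at 17.8% against 12.4% (TREM2+) and 18.3% against 8.17% (TREM2-). Ctsh was likewise above Ctsd in both groups, at 7.30% against 5.64% (TREM2+) and 10.1% against 3.84% (TREM2-). Fold changes of a gene do not depend on this length. Reads of genes that overlap on the genome could not be told apart by strand, since no strand setting is given. Such overlaps touch Ctsa (Neurl2 and Pltp), Ctsb (Fdft1), Ctsc (Gm26522), Ctsd (Gm49369), Ctsl (Gm47123 and Gm49230), Ctss (Hmgb1-ps5) and Ctsz (Nelfcd).

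**Figure D3:**
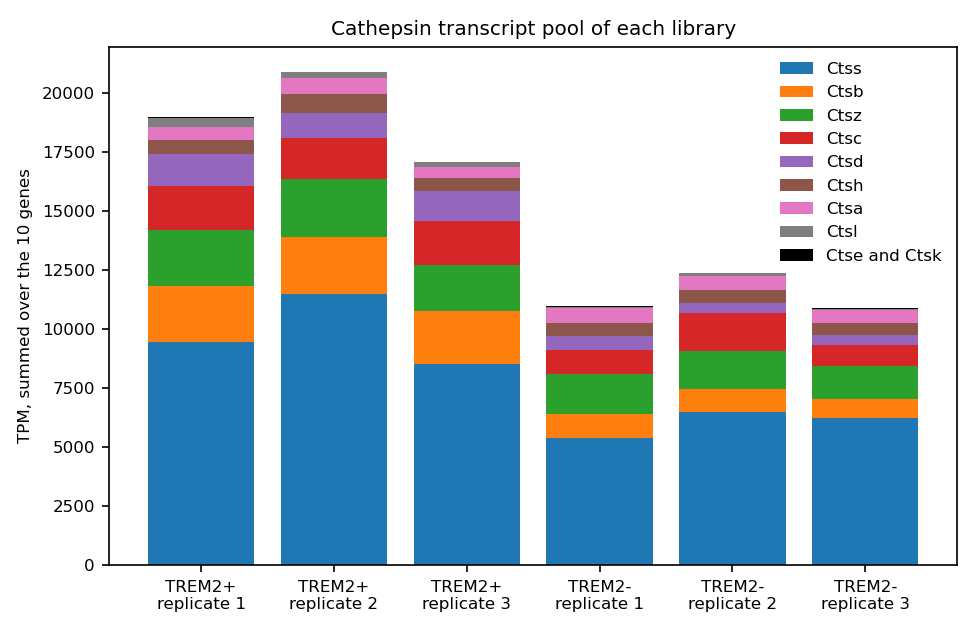
Stacked bars show TPM from 0, summed over the 10 cathepsin genes, for each of the 6 libraries, with 1 colour for each gene and Ctse and Ctsk drawn together. The TREM2+ bars reach 17073 to 20906 TPM and the TREM2- bars 10877 to 12380 TPM, and Ctss fills about the same part of both.

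The genes that activate, sort, inhibit or work beside the cathepsins were listed by role, 77 in all, of which 64 were tested. Of these 4 rose (Csta3, Serpinb6a, Lgmn and Atp6v0d2) and 1 fell (Serpinb1a), beside 2.05% and 0.37% of all genes, and the median log2 fold change was 0.24. Lgmn encodes legumain, the asparaginyl endopeptidase that cleaves cathepsins B, H and L from single-chain forms into their mature chains (chromosome 12). It rose from 311, 499.7 and 536 TPM in TREM2- replicates 1, 2 and 3 to 1629.6, 1931 and 1105 TPM in TREM2+ replicates 1, 2 and 3, a log2 fold change of 1.79 ± 0.30 (limma, adjusted p = 0.0194). The call on Lgmn ended without TREM2- replicate 1 (adjusted p = 0.0555) and without TREM2- replicate 3 (adjusted p = 0.0541), and without the repeat family (adjusted p = 0.0528). Psap, for the precursor of the saposins and a substrate of cathepsin D, stood at 1417, 1897 and 1602 TPM against 1252, 612 and 939 TPM and was not called (limma, adjusted p = 0.235).

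The inhibitors did not move together. Of 18 listed, 12 were tested, 2 rose and 1 fell, beside 2.05% and 0.37% of all genes. Cst3, for the secreted inhibitor cystatin C, held 2309, 2460.2 and 1564 TPM in the TREM2+ libraries against 3247, 2909 and 2489.6 TPM in the TREM2- libraries, lower in all 3 TREM2+ libraries but not called (limma, adjusted p = 0.533). Cstb, for the cytosolic inhibitor cystatin B, held 2362, 1727 and 1981 TPM against 957, 1126 and 882 TPM, higher in all 3 and just short of the threshold (limma, log2 fold change 1.03 ± 0.23, adjusted p = 0.0598). Voom and a minimum of 5 TPM called Cstb higher. The summed cysteine cathepsins came to 7.38, 7.78 and 9.81 times the Cst3 level in TREM2+ replicates 1, 2 and 3 and to 2.99, 3.89 and 3.98 times in TREM2- replicates 1, 2 and 3. Set against Cst3 and Cstb together, this ratio was 3.65, 4.57 and 4.33 against 2.31, 2.80 and 2.94. Neither ratio overlapped between the groups, and both include Cst3. The ratio of Ctsb to Cstb did overlap. It was 1.004, 1.386 and 1.135 in the TREM2+ libraries against 1.052, 0.8546 and 0.9292 in the TREM2- libraries. The ratios with Cst3 therefore do not show a shift against each inhibitor.

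Among the scarcer inhibitors, Serpinb1a, for a serpin that inhibits neutrophil serine proteases, fell from 64.0 ± 10.5 to 24.3 ± 5.13 TPM, with a log2 fold change of -1.37 ± 0.24 (limma, adjusted p = 0.0215). Serpinb6a, for a serpin that inhibits cathepsin G, rose from 11.2 ± 2.93 to 27.6 ± 4.40 TPM (log2 fold change 1.24 ± 0.25, limma, adjusted p = 0.0405). Csta3, a stefin of a cluster of near-identical genes and so uncertain, rose from 4.38 ± 0.497 to 17.8 ± 7.96 TPM (log2 fold change 1.69 ± 0.35, limma, adjusted p = 0.0454). Of the 6 fits that leave out a library, the call was kept in 3 for Serpinb1a, in 1 for Serpinb6a and in 2 for Csta3. The fits that lost it were those without TREM2+ replicates 1 or 3 or TREM2- replicate 1 for Serpinb1a, and without any library but TREM2- replicate 1 for Serpinb6a. For Csta3 they were those without TREM2+ replicates 1 or 3 or TREM2- replicates 1 or 3.

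**Figure D4:**
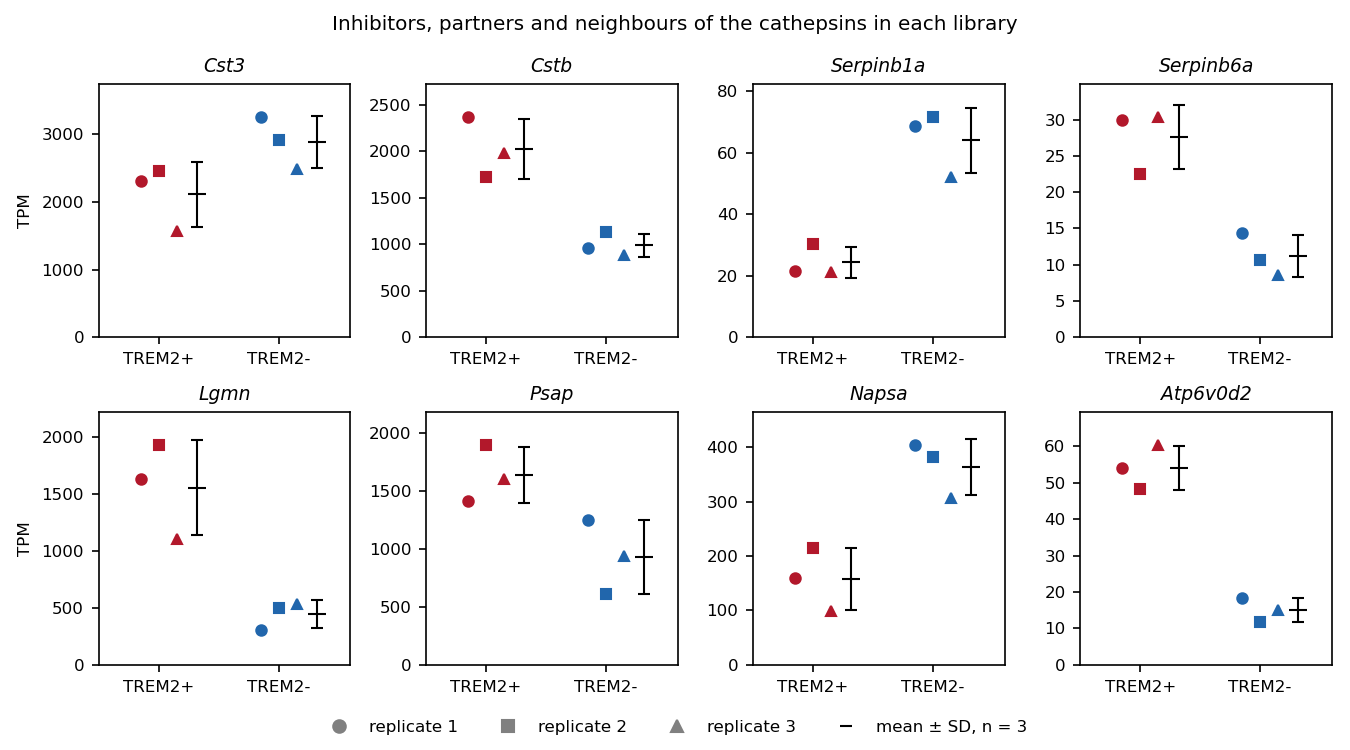
Each panel plots TPM on a linear axis from 0 for an inhibitor (top row) or another lysosomal gene (bottom row), with circles, squares and triangles for replicates 1, 2 and 3 and the mean and SD (n = 3) beside them. Lgmn and Atp6v0d2 lie higher in all 3 TREM2+ libraries, and Cst3, Serpinb1a and Napsa lower.

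Limma called 1 of the genes for the low pH and 0 of those for the sorting on which cathepsins depend. Of 16 proton pump genes 1 rose, where 2.05% of all genes did (4 higher and 0 lower by unadjusted p under 0.05). The gene called was Atp6v0d2, an isoform of the membrane part found in macrophages and osteoclasts. It stood at 54.0, 48.2 and 60.3 TPM in the TREM2+ libraries against 18.3, 11.7 and 15.1 TPM in the TREM2- libraries (log2 fold change 1.80 ± 0.23, limma, adjusted p = 0.0067), and was called in all 6 fits that leave out a library. The median of the 16 was 0.30, with 12 above 0, beside 5382 of all 13788 genes tested. The groups did not overlap in 6 of the 16, beside 16.7% of all genes. Voom also called Atp6v0c, Atp6v1c1 and Atp6ap2 higher, where it called 573 of 13331 genes higher. Of 9 sorting and membrane genes limma called 0 (0 higher and 1 lower by unadjusted p under 0.05). Values of 0.33 ± 0.22 on the log2 scale were found for the lysosomal membrane protein gene Lamp1 and of 0.31 ± 0.26 for M6pr, the mannose 6-phosphate receptor gene. Voom called none of the 9.

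Of 5 other lysosomal peptidases limma called 0 (2 higher and 1 lower by unadjusted p under 0.05), and voom called Tpp1 and Dpp7 higher and Napsa lower. Napsa, for the aspartic protease napsin A and thus a relative of Ctsd, held 159, 214 and 99.8 TPM in the TREM2+ libraries against 403, 382 and 306 TPM in the TREM2- libraries (limma, log2 fold change -1.26 ± 0.30, adjusted p = 0.0714). Its groups did not overlap, in the direction opposite to Ctsd. The carboxypeptidase gene Scpep1 had a log2 fold change of 0.23 ± 0.26. Of the 4 transcription factor genes of lysosome biogenesis limma called 0 (2 higher by unadjusted p under 0.05), and voom called Mitf higher. Tfeb, which encodes a regulator of lysosomal genes, stood at 17.7, 19.3 and 16.4 TPM against 29.4, 17.6 and 17.5 TPM, with overlapping groups, and Tfec at 25.2, 15.7 and 13.3 TPM against 5.60, 16.2 and 6.70 TPM.

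Cd74 encodes the invariant chain that cathepsin S degrades. It held 19241, 30535 and 23226 TPM in TREM2+ replicates 1, 2 and 3 and 11876, 7195 and 12001 TPM in TREM2- replicates 1, 2 and 3, without overlap, and missed the threshold (limma, log2 fold change 1.24 ± 0.31, adjusted p = 0.0899). Voom called it. Ifi30, for the thiol reductase that unfolds antigens beside the cathepsins, had a log2 fold change of 0.08 ± 0.24, with overlapping groups.

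Across the 6 libraries the members fell into several patterns, described here by Pearson's r of log2(TPM + 1) over 6 libraries that share depth and composition. Ctsb followed Ctsd with r = 0.97, and Ctsa had r between -0.09 and 0.67 with the other members. Ctse had negative r with 8 of the 9 others, down to -0.81 with Ctsl. Of 5311 protein-coding genes with a mean of at least 10 TPM, those closest to Ctss were Vegfa (r = 0.99), Lgmn (r = 0.99) and Atpif1 (r = 0.99). Those closest to Ctsd were Clec4f, Ldha and Cd5l, with r = 0.998, 0.998 and 0.997. Clec4f stood at 512, 267 and 350 TPM in the TREM2+ against 71.6, 30.9 and 31.4 TPM in the TREM2- libraries. Cd5l stood at 489, 263 and 347 against 66.5, 29.5 and 35.3 TPM, and Ldha at 1989, 1574 and 1776 against 1073, 910 and 868 TPM. Their part in the cathepsin values was not tested. The genes closest to Ctsa were Unc93b1 (r = 0.99), Glmp (r = 0.98) and Tmem9 (r = 0.98). With so many candidates and 6 libraries a high r is easily reached, and no test is attached to these names.

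Markers of other cells moved between the same libraries, and their part in the cathepsin values was not tested. Over all genes tested, limma called 2.05% higher and 0.37% lower. By unadjusted p under 0.05, 1027 of these 13788 genes were higher and 736 lower. Voom called 573 higher and 158 lower of 13331 genes. Of 9 endothelial markers 7 were higher, of which Cdh5 and Ptprb passed the filter only through the TREM2+ libraries and Kdr and Stab2 reached 1 TPM in 1 and 2 of the 3 TREM2- libraries. The 9 together had a summed level of 215 to 310 TPM in the TREM2+ libraries and 24.3 to 52.5 TPM in the TREM2- libraries. Of 4 basophil and mast cell markers 3 were lower, at 15.2 to 23.6 against 114 to 198 TPM. Of 8 neutrophil markers 4 had a fold change above and 4 below 0 (2 higher and 4 lower by unadjusted p under 0.05), and 1 was called lower, Camp, while voom also called Ngp and Ltf lower. The neutrophil genes S100a9 and Cxcr2 were higher in all 3 TREM2+ libraries without a call (log2 fold change 0.77 and 0.94). The summed neutrophil level was 15597 to 19509 against 18083 to 22536 TPM. The 8 T and NK cell markers had no call by limma (3 lower by unadjusted p under 0.05) or voom and summed to 834 to 1047 against 1408 to 3365 TPM. Of 7 dendritic cell markers 1 was called lower, Ccr7 (0 higher and 3 lower by unadjusted p under 0.05). The fold change was below 0 in 6 of them, with a median log2 fold change of -0.80. They summed to 54.9 to 71.6 against 93.7 to 252 TPM. The 6 B and plasma cell and 6 hepatocyte markers, and the 1 of 6 fibroblast markers that was tested, had no call by limma (0 by unadjusted p under 0.05) or voom. No marker was at 0 in all 6 libraries. Of 5 osteoclast markers 3 were tested, with 3 above 0, a median log2 fold change of 1.04 and 1 called higher, Acp5. By unadjusted p under 0.05, 2 were higher and 0 lower. Ocstamp stood at 28.7, 61.0 and 21.8 TPM in the TREM2+ libraries against 10.3, 16.4 and 23.6 TPM in the TREM2- libraries. Dcstamp stood at 4.38, 3.53 and 3.98 TPM against 2.53, 1.86 and 2.92 TPM. Calcr and Oscar were not tested and stayed at or below 0.358 TPM in every library, beside Ctsk at up to 2.23 TPM.

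**Figure D5:**
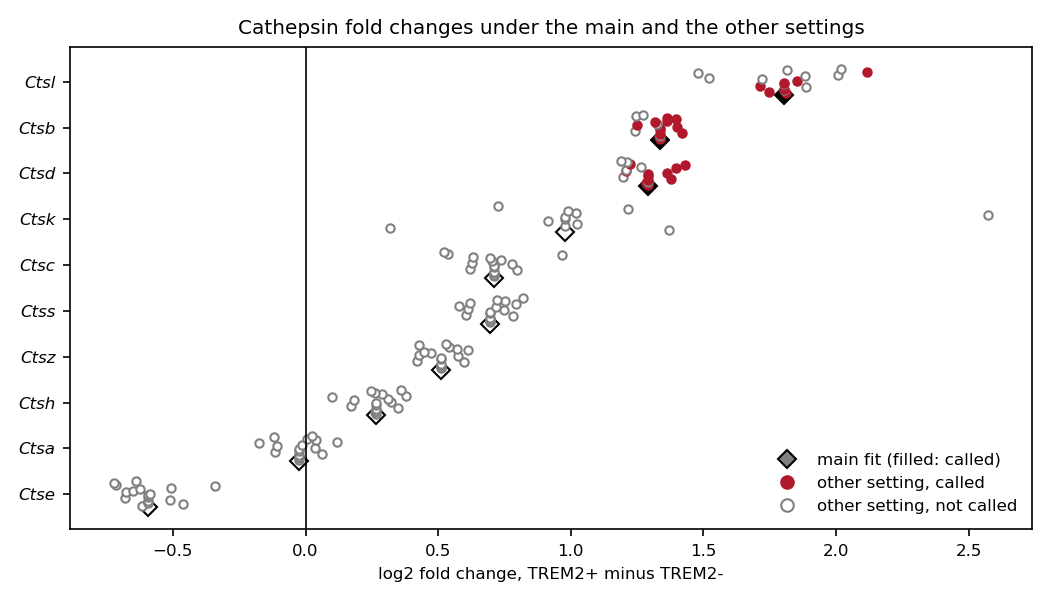
Each point is the log2 fold change of 1 cathepsin gene under 1 setting of the analysis, with diamonds for the analysis as reported, filled where called, and circles for the other settings, red where called. Ctsl, Ctsb and Ctsd lie between 1.19 and 2.12 in every setting, and Ctsa lies on both sides of 0.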

How the data were processed

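Polyadenylated RNA of 3 TREM2+ and 3 TREM2- libraries was sequenced with paired ends, per the labels' protocols. Per the submitters' processing notes, STAR 2.7.10a, Subread and featureCounts 2.0.3 were used with mm10. The sources used here do not state the annotation release, strand setting or formula. The deposited table is named as TPM, but its values are a length-scaled signal: the 6 columns together, not each, sum to 1000000. Each column was therefore rescaled here to 1000000 (TPM in the text). Whole reads were recovered with exon lengths of GENCODE M21. Of 36671 matched genes with a value above 0, 98.7% gave whole reads to within 0.01 in each of the 6 libraries, and intervals or floors on reads cover counting error only. Gene coordinates were taken from GENCODE M21 (mm10).

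Limma 3.58.1 in R 4.3.3, with its trend option, was fitted to log2(TPM + 1) of the genes that reached 1 TPM in at least 3 libraries. Tests were two-sided and p-values were adjusted by Benjamini-Hochberg over all of these genes, with a threshold of 0.05. This scale understates the change of low genes. Errors are SDs (n = 3) on TPM and limma standard errors on log2 fold changes. The fit was tested on simulated reads. Replicates of a group differed by more than sampling noise, with chi-square per degree of freedom from 77.7 to 238. Shares by principal transcript length were added after the data were seen. The members and gene lists were chosen by role with earlier results of these data known. Named were the 10 members, the called genes of each list, in lists with none called the 2 with the highest mean, and further genes by role. The alternatives covered the pseudocount, filter, scaling, block, trend, voom on recovered reads, a repeat family of 12 genes, and left-out libraries.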

Additional observations from a re-analysis of the deposited data

How the results depend on the processing

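The 3 called members kept their direction in all 17 other settings, with log2 fold changes of 1.24 to 1.42 (Ctsb), 1.19 to 1.43 (Ctsd) and 1.48 to 2.12 (Ctsl). The count of higher members, 3 as reported, ranged from 0 to 3 in the fits that leave out 1 library: it was 0 without TREM2+ replicate 1 or TREM2- replicate 3 and 1 without TREM2+ replicate 3. It was 0 without a filter on low values, 1 on the deposited values without rescaling and 0 without both libraries numbered 3, where limma called 0 of all genes. No member was called lower in any setting. Voom gave no value for Csta3, which had no exon length, and Ctsk had none with a minimum of 5 TPM, without any 1 TREM2+ library or without both libraries numbered 3.

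Higher and lower genes over the whole table, 282 and 51 as reported, numbered 95 and 3 without a filter, 116 and 10 with the replicate block and 573 and 158 with voom. Lower genes numbered 80 under median-of-ratios scaling, 92 on the deposited values and 101 without the repeat family. Leaving out 1 library gave 116 to 342 higher and 7 to 105 lower genes. The higher count was 148, 153 and 116 without TREM2+ replicate 1, TREM2+ replicate 3 and TREM2- replicate 3; the lower count was 7, 105 and 10 without TREM2- replicates 1, 2 and 3. Without both libraries numbered 3 it was 0 and 0.

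Pathway genes, 4 higher and 1 lower as reported, numbered 1 and 0 without a filter, 7 and 2 under median-of-ratios scaling and 13 and 3 with voom. Lower ones numbered 2 with a minimum of 5 TPM, on the deposited values and without the repeat family. Without both libraries numbered 3 they were 0 and 0. Leaving out 1 library gave 1 to 6 higher and 0 to 5 lower. The higher count was 2 without TREM2+ replicate 3 or TREM2- replicate 1 and 1 without TREM2- replicate 3; the lower count was 0 without TREM2+ replicate 1, TREM2+ replicate 3 or TREM2- replicate 1, and 5 without TREM2+ replicate 2.

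With the replicate number as a block, 2 members (Ctsb and Ctsd) and 1 pathway gene (Atp6v0d2) were called higher and 1 (Serpinb1a) lower. The numbers pair no samples by the labels, and deviations from the group means correlated with r of 0.19, -0.03 and 0.22 between libraries numbered 1, 2 and 3. TREM2+ replicate 2 correlated best with TREM2- replicate 3 (r = 0.13), not with its own number.

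Of the values near 0, Ctsa turned to 0.062 under median-of-ratios scaling, 0.037 with voom and 0.024 without both libraries numbered 3, and lay between -0.18 and 0.12 when 1 library was left out. Ctso turned to -0.020 on the deposited values, -0.0085 without the repeat family and -0.056 without both libraries numbered 3, and Ifi30 to -0.014 and -0.0056 in the first 2 of these. With 1 library left out Ctso ran from -0.089 to 0.38, Ifi30 from -0.096 to 0.22, Neu1 from -0.048 to 0.28 and Tfeb from -0.34 to 0.017. Where a call changed, the cause was not tested beyond the smaller number of libraries or the larger number of genes in the fit.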

Other observations

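A further 12 mouse cathepsin genes outside the 10 described were listed, and 5 of them passed the filter. Limma called 0 of these (2 higher and 1 lower by unadjusted p under 0.05) and voom called 1 higher, Ctsf. Ctsf, for the cysteine protease cathepsin F, stood at 3.53, 3.09 and 2.97 TPM in TREM2+ replicates 1, 2 and 3 and at 1.002, 0.825 and 1.08 TPM in TREM2- replicates 1, 2 and 3, not called (limma, adjusted p = 0.0513). Ctsg, the serine protease cathepsin G of neutrophil granules, stood at 1.76, 4.21 and 0.302 TPM against 4.996, 6.62 and 11.7 TPM. Ctsw, a cathepsin of cytotoxic lymphocytes, held 141 TPM in TREM2- replicate 1 and 24.9 to 44.1 TPM in the other 5 libraries. The T and NK cell markers were also highest in that library. Ctso, for cathepsin O, stood at 25.4, 30.1 and 25.7 TPM against 40.1, 20.6 and 20.4 TPM, with overlapping groups.

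Ctsj belongs to the cathepsin cluster of rodents on chromosome 13 that is known for expression in placenta. It had 54, 281 and 60 reads in TREM2+ replicates 1, 2 and 3 and 6, 22 and 18 reads in TREM2- replicates 1, 2 and 3, or 4.92, 27.7 and 6.56 TPM against 0.472, 2.07 and 1.96 TPM. The groups did not overlap and TREM2+ replicate 2 was far above the others (limma, adjusted p = 0.103). The 7 other listed genes of that cluster stayed below 1 TPM in all 6 libraries. Ctsf and Ctsj each reached the 1 TPM of the filter in 3 TREM2+ and 2 TREM2- libraries, so they were tested only because of their TREM2+ level. Ctsj shares sequence with its neighbours, so its reads are uncertain.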
